A study of Mus musculus with 18 samples.

Results

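The genes described here are 41 mouse genes of the lysosome: 16 encode subunits of the vacuolar proton pump (V-ATPase) or its accessory proteins, 6 encode cathepsins, 10 encode other hydrolases or proteins that handle lysosomal lipid, 5 encode membrane proteins, and 4 encode the transcription factors Tfeb, Tfe3 and Mitf and the autophagy receptor Sqstm1. They were chosen by name, with earlier results of these data known, and matched by Ensembl gene ID in a table of 53379 gene IDs. All 41 were found. Counts of these genes beside shares of all genes therefore describe the list and do not test it. RNA was sequenced from neutrophils that had been sorted by FACS from the bone marrow of mice aged 10 weeks. The series sets cells that lack CIS, the inhibitor of cytokine signalling encoded by Cish, beside WT cells in their response to GM-CSF, which drives growth and survival of myeloid cells. The groups were CIS-/- and WT cells lysed straight after the sort (unstimulated), CIS-/- and WT cells after 4 h in medium with 100 ng/mL GM-CSF, and CIS-/- and WT cells after 24 h in it, with 3 libraries each. Neither the strain nor the design of the Cish allele is stated in the labels, and 1 protocol text gives 42 h where the sample titles give 24 h. Culture without GM-CSF has no library here, and what culture alone does cannot be told apart from what GM-CSF does. Whether replicates were separate mice is not stated in the labels, and the p-values cover only the spread among these 18 libraries, which may be technical.

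Lysosomes break down protein, lipid and glycan at low pH. The V-ATPase makes that pH: its cytosolic V1 sector splits ATP and turns a rotor, and its membrane V0 sector carries protons across as the rotor turns. Cathepsins and other acid hydrolases do the breaking down, LAMP proteins line the membrane, and TFEB, TFE3 and MITF are related factors that bind E-box sequences near the start of many lysosomal genes. Neutrophils hold much of their digestive enzyme in granules, which are built in the marrow.

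Cish was higher in the unstimulated libraries labelled CIS-/-, with 18.2, 20 and 17.9 CPM (counts relative to library size), than in unstimulated WT, with 6.48, 6.51 and 6.5 CPM. After 4 h it stood at 243, 240 and 237 CPM in the libraries labelled CIS-/- against 1150, 1140 and 1150 CPM in WT, and after 24 h at 238, 243 and 233 CPM against 1070, 1050 and 1060 CPM. As the design of the allele is not stated, what Cish RNA says of the label cannot be told. Because the unstimulated level was above WT, these libraries are called "labelled CIS-/-" throughout. The counts over time that rest on the unstimulated ones are also given with WT unstimulated in their place. An interaction counted from WT unstimulated in both genotypes would be the genotype difference at that time itself. Totals ran from 12170524 to 22539858 counts. Labelled CIS-/- 24 h replicate 1 stood apart from its group, with a chi-square per degree of freedom of 7.498 and 9.317 to the other 2 libraries against 2.544 between those, and at most 3.061 within any other group. Without it, 38 of the 41 genes were still called higher, 3 lower and 28 at least 2-fold higher in labelled CIS-/- than in WT at 24 h. All 13 neutrophil markers had counts in every group, and summed to 118000 to 122000 CPM in unstimulated labelled CIS-/- against 123000 to 124000 CPM in unstimulated WT, to 68800 to 73900 CPM against 74100 to 75400 CPM at 4 h, and to 33800 to 38300 CPM against 33500 to 34900 CPM at 24 h. Within the list, markers went both ways between genotypes at 24 h (log2, labelled CIS-/- over WT). Called lower were Retnlg at -2.58, Csf3r at -1.34, Cxcr2 at -1.08, Elane at -1.06, Mpo at -0.96, Mmp8 at -0.71 and Mmp9 at -0.09. Called higher were Ltf at 1.15, S100a9 at 0.5, S100a8 at 0.4, Camp at 0.29 and Ly6g at 0.12. Ngp, at 0.04, was not called. The part of these markers in the results was not tested. CPM values use library sizes scaled by TMM, which assumes that most genes do not change. The TMM factors lay between 0.884 and 0.894 in the labelled CIS-/- libraries at 24 h and between 1.28 and 1.29 in WT at 24 h. Without TMM the median of all genes moved to -0.55 (log2) for labelled CIS-/- against WT at 24 h, to 0.36 for WT at 24 h against unstimulated and to 0.45 for WT at 24 h against 4 h.

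The summed share of the 41 genes was higher at 4 h than unstimulated in both genotypes, and at 24 h it was higher again in labelled CIS-/- libraries, while WT at 24 h stayed within 1.67 to 1.72%, against 1.65 to 1.67% at 4 h. Their summed share of all counts was 0.703, 0.704 and 0.699% in unstimulated labelled CIS-/- libraries and 0.707, 0.708 and 0.703% in unstimulated WT. At 4 h it was 1.59, 1.59 and 1.54% in labelled CIS-/- against 1.65, 1.66 and 1.67% in WT. At 24 h it was 3.61, 3.48 and 3.4% in labelled CIS-/- against 1.72, 1.68 and 1.67% in WT. The share does not depend on TMM, and the genotypes overlapped neither at 4 h nor at 24 h. Leaving out Ctsd, Psap and Sqstm1, which hold much of it, the share at 4 h was 0.977, 0.981 and 0.957% in labelled CIS-/- against 0.997, 1.01 and 1.01% in WT. At 24 h it was 1.86, 1.8 and 1.76% in labelled CIS-/- against 0.906, 0.898 and 0.886% in WT, so without these 3 genes WT was lower at 24 h than at 4 h. In bulk RNA, more cells of a type and more RNA per cell cannot be told apart.

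**Figure D1:**
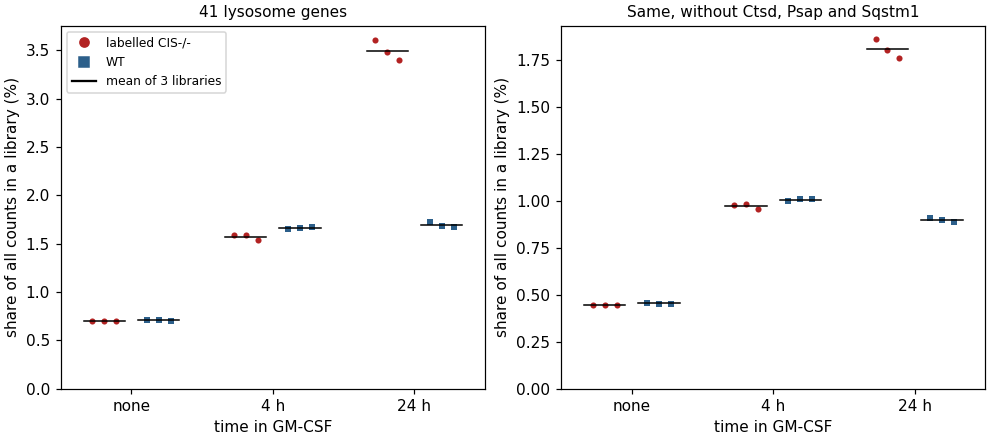
Share of all counts in each library, in percent, taken by the 41 lysosome genes (left) and by the same genes without Ctsd, Psap and Sqstm1 (right), by time in GM-CSF; circles are libraries labelled CIS-/-, squares are WT and lines are means of 3. At 24 h the libraries labelled CIS-/- sit between 3.4 and 3.61% on the left and WT between 1.67 and 1.72%.

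Tests used edgeR's quasi-likelihood model over the 11569 genes that passed a filter on low counts, with Benjamini-Hochberg adjustment over all of them; a gene is called at an adjusted p under 0.05. All 41 members passed the filter. Most of the tested genes were called between times, so the size of a change is given beside the main counts. In WT at 4 h against unstimulated, 35 members were called higher and 3 lower, against 38.1% and 38.2% of all genes, and 25 were at least 2-fold higher, against 18.3% of all genes. The median log2 fold change was 1.43 for the members and -0.02 for all genes. At 24 h against unstimulated WT, 31 were called higher and 8 lower (40.7% and 37.7% of all genes; 36 and 2 without TMM), with a median of 0.96 against 0.05 for all genes, and 20 were at least 2-fold higher (16.9%). Between 4 h and 24 h in WT, 9 were called higher and 30 lower (35.7% and 39.6% of all genes), which became 17 higher and 19 lower without TMM. With TMM, 2 were at least 2-fold higher and 13 at least 2-fold lower (13.8% and 16.1% of all genes). The median was -0.52 against -0.04 for all genes.

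In libraries labelled CIS-/- most of the genes were higher at 4 h and higher again at 24 h. At 4 h against unstimulated, 36 were called higher and 4 lower (37.9% and 39.1% of all genes), with a median of 1.38 against -0.03 for all genes. Of these, 23 were at least 2-fold higher and 1 at least 2-fold lower (18.1% and 18.2% of all genes). With WT unstimulated in place of the unstimulated libraries labelled CIS-/-, 36 were called higher and 3 lower at 4 h. At 24 h against unstimulated, 40 were called higher and 1, Gusb, lower (42.1% and 42% of all genes), 32 were at least 2-fold higher (24.7% of all genes), and the median was 2.26 against -0.01. Against unstimulated WT, 40 were called higher, 0 lower and 31 at least 2-fold higher. Between 4 h and 24 h, 38 were called higher and 3 lower (37.8% and 37.9% of all genes); the 3 were Ctss, Lamp2 and Tfeb. In this comparison 19 were at least 2-fold higher and 1 at least 2-fold lower (17.7% and 18.1% of all genes). The median was 0.82 against -0.01 for all genes.

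The direct comparison of genotypes changed with time. In unstimulated cells 9 members were called higher and 4 lower in labelled CIS-/- libraries than in WT (12.9% and 9.41% of all genes), and 1, Gla, was at least 2-fold higher (1.33% of all genes), while 0 were at least 2-fold lower (0.415%). The other 8 called higher were Ctsl, Atp6v0c, Neu1, Sqstm1, Gusb, Mitf, Tfe3 and Atp6v0d1, and the 4 called lower were Atp6v1c1, Ctsb, Atp6v1d and Lamp2. Beside them, 5 erythroid markers summed to 88.5 to 89.8 CPM in labelled CIS-/- against 32.1 to 34.6 CPM in WT, and their part was not tested. The count called lower rests on the settings: it was 11 in a fit of these groups alone, 11 without TMM, with 8 higher, and 7 without labelled CIS-/- 24 h replicate 1. At 4 h, 5 were called higher and 16 lower (8% and 9.3% of all genes), and 0 by at least 2-fold in either direction (0.596% of all genes higher and 0.493% lower). The count higher was 2 without WT 4 h replicate 2, 3 without WT 4 h replicate 1, 3 without labelled CIS-/- 4 h replicate 2 and 8 in a fit of these groups alone, and with no low-count filter 3 were called higher and 10 lower.

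At 24 h, 38 of the 41 genes were higher in labelled CIS-/- libraries than in WT and 3 were lower, against 38.2% and 38.1% of all genes; 29 were at least 2-fold higher, against 18.2% of all genes, and 0 at least 2-fold lower, against 16%. The median log2 fold change was 1.43, against -0.02 over all genes. Without TMM 34 were called higher, 7 lower and 19 at least 2-fold higher, with a median of 0.90 against -0.55 over all genes, of which 4416 higher and 4411 lower became 2558 and 6999. The 3 lower genes were Ctss, Gusb and Asah1, and the 4 that turned lower without TMM were Atp6ap1, Ctsa, Lipa and Tfeb. The highest adjusted p among the 41 was 8.11e-07, for Tfeb. The change over 24 h also differed between genotypes: the interaction was called for all 41, with 38 positive and 3 negative (31.6% and 33.1% of all genes; 34 and 6 without TMM). The interaction over the first 4 h was called positive for 3 and negative for 12 (5.32% and 10.4% of all genes; 5 positive in a fit of these groups alone), and 0 were at least 2-fold positive (0.303%) and 1, Gla, at least 2-fold negative (1.14%). Between 4 h and 24 h it was positive for 38 and negative for 3 (33.9% and 32.1% of all genes; 35 and 5 without TMM).

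**Figure D2:**
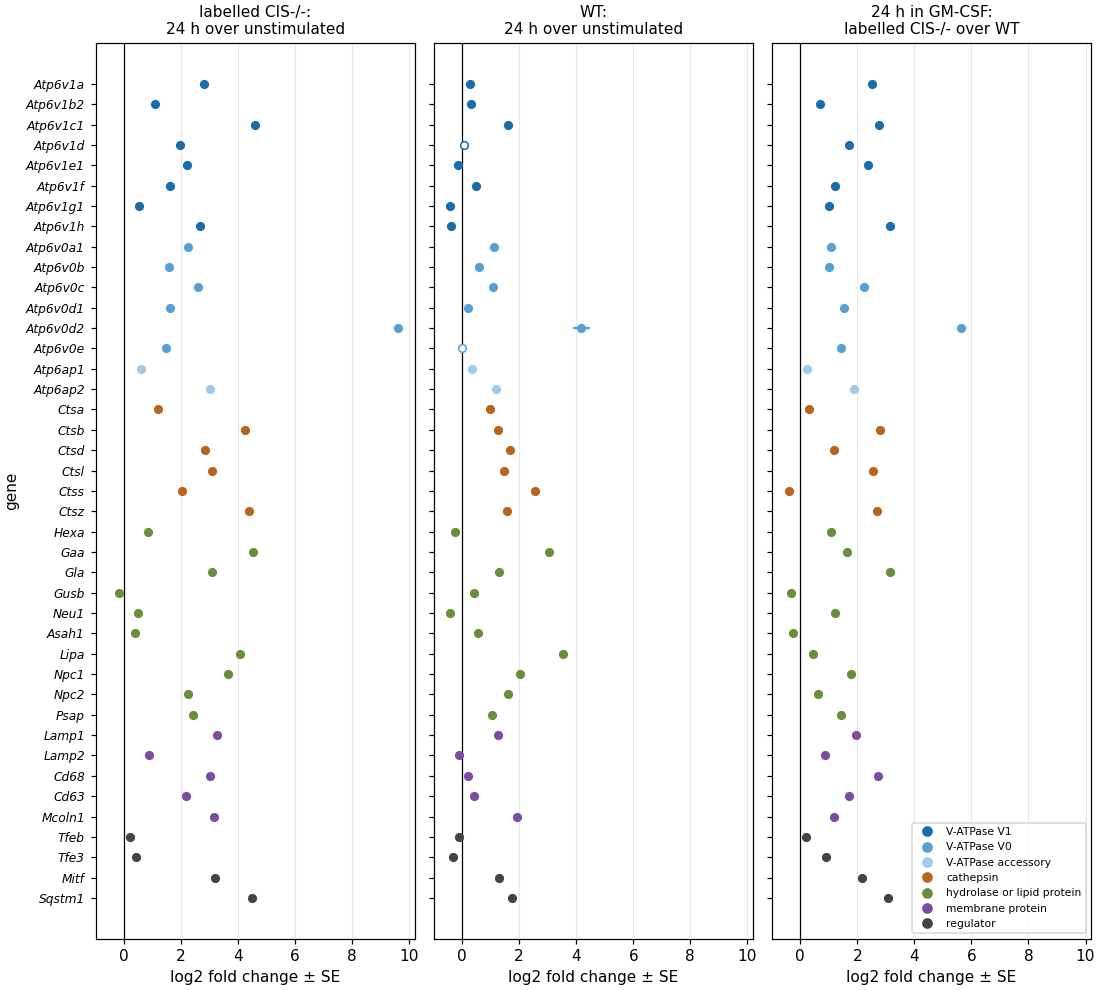
Log2 fold change of the 41 genes, coloured by role, for labelled CIS-/- at 24 h over unstimulated (left), WT at 24 h over unstimulated (middle) and labelled CIS-/- over WT at 24 h (right); bars are standard errors of the edgeR fit, mostly smaller than the points, and open points were not called. In the left panel 40 genes lie above 0, in the middle 31 were called above it and 8 below, and in the right 38 lie above 0 and 3 below; without TMM, Atp6ap1, Ctsa, Lipa and Tfeb also fall below 0 on the right, and Atp6v1e1, Hexa, Tfeb and Lamp2 rise above it in the middle.

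The promoters of some of these genes carry the E-box CACGTG that TFEB, TFE3 and MITF are known to bind. RefSeq promoters (GRCm38.p6, from 250 bases before the start to 50 after it) were at hand for 33 of the 41 members, and 11 of them (33.3%) held CACGTG on either strand, against 24.2% of 91 genes of the other lysosome lists, 12.1% of the tested genes with a promoter and 8.09% of all genes with one. The longer TCACGTGA, which contains CACGTG, was in 21.2% of the members, 6.59% of the other lysosome genes, 2.43% of tested genes and 1.12% of all genes. TCATGTG, which cannot contain CACGTG, was in 12.1% of members, 8.79% of the other lysosome genes, 2.7% of tested genes and 4.31% of all genes. The CLEAR palindrome, a longer motif around CACGTG, was in 0 of the 33, 2.2% of the other lysosome genes, 0.917% of tested genes and 0.37% of all genes. A match describes letters in a window, and no binding was measured. The 11 genes were Atp6v0b, Atp6v0d1, Atp6v0e, Atp6v1a, Ctsa, Ctsd, Ctsl, Gaa, Gla, Lamp1 and Mcoln1. Shown are 4 promoters with more than 1 copy, from genes of 3 roles, and that of Sqstm1, which differed by 3.07 (log2) between genotypes at 24 h and has none. Capitals mark CACGTG, with a T just before it or an A just after it where the promoter has one. Lamp1 lies at chr8:13158911-13159210 on the plus strand, with copies 61, 45, 28 and 15 bases before the start. Gla lies at chrX:134600956-134601255 on the minus strand, with copies 227 and 194 bases before it. Mcoln1 lies at chr8:3500269-3500568 on the plus strand, with copies 71 and 45 bases before it. Ctsd lies at chr7:142387778-142388077 on the minus strand, with copies 245 and 98 bases before it. Sqstm1 lies at chr11:50210771-50211070 on the minus strand.
Lamp1: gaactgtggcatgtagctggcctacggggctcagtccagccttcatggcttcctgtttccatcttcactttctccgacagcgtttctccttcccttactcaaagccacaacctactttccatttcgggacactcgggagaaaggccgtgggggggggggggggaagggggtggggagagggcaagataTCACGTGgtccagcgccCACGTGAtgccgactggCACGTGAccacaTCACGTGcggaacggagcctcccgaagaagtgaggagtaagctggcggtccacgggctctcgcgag
Gla: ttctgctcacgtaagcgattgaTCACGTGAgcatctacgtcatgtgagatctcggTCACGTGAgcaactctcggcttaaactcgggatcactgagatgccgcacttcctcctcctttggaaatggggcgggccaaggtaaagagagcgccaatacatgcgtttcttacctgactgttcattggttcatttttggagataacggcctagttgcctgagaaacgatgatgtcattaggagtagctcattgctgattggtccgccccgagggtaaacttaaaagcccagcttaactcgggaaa
Mcoln1: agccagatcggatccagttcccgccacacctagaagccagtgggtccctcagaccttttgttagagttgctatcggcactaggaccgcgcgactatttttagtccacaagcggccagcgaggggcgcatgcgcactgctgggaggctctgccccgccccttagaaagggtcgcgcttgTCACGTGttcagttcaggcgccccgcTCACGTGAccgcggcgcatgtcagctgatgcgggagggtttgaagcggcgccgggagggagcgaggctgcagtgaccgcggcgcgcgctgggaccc
Ctsd: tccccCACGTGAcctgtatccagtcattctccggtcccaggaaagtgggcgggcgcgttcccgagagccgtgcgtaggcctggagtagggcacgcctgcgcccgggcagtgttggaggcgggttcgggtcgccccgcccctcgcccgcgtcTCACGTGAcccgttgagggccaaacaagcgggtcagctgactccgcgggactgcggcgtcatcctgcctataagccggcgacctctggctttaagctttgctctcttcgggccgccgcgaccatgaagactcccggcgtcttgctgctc
Sqstm1: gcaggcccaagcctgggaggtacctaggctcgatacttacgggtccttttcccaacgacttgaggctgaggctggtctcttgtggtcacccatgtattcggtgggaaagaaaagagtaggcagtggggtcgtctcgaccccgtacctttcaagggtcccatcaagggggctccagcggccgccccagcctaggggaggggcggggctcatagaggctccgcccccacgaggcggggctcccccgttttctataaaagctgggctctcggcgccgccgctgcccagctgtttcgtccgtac
At 24 h the log2 difference of labelled CIS-/- from WT ran from 0.32 to 3.14 with a median of 1.52 in the 11 genes with CACGTG. In the 22 without it the range was -0.38 to 3.07 with a median of 1.2. The ranges overlapped over most of their length. Medians of the change from unstimulated lay further apart. In WT they were 2.05 with CACGTG against 0.93 without it after 4 h, then 1.26 against 0.46 after 24 h. Labelled CIS-/- libraries gave 1.56 against 0.76, then 2.84 against 2.19. From 4 h to 24 h the medians with CACGTG were lower, -0.7 against -0.35 in WT and 0.81 against 0.84 in labelled CIS-/-. These ranges overlapped too, and the sets were not tested against each other.

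All 16 V-ATPase genes of the list were called higher in labelled CIS-/- libraries than in WT at 24 h (38.2% of all genes), 13 by at least 2-fold (18.2%), with a median log2 fold change of 1.61; without TMM 15 were higher and Atp6ap1 was lower at -0.29. In WT 15 of the 16 were called higher at 4 h than unstimulated (38.1% of all genes), and 14 were called lower at 24 h than at 4 h (39.6%), a count that became 8 lower and 4 higher without TMM. In labelled CIS-/- libraries all 16 were called higher at 4 h than unstimulated (37.9% of all genes), also against unstimulated WT, and all 16 higher again at 24 h than at 4 h (37.8%). At 4 h the genotypes were close: 1 of the 16, Atp6v0a1, was called higher in labelled CIS-/- libraries and 3 were called lower (8% and 9.3% of all genes), all by less than 2-fold.

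Of the V1 sector, Atp6v1a (chr16:44085402-44139705, minus strand), the catalytic subunit, had 150, 149 and 147 CPM unstimulated, 436, 444 and 432 CPM at 4 h and 1020, 1030 and 1060 CPM at 24 h in labelled CIS-/- libraries. In WT it had 154, 146 and 155 CPM, then 478, 497 and 487 CPM, then 179, 188 and 181 CPM. WT at 24 h was 0.27 (log2) above unstimulated WT. The genotypes did not overlap at 24 h, and the log2 fold change was 2.51 ± 0.03 (SE; adjusted p = 2.55e-56). Atp6v1h, a regulatory subunit, had 133, 129 and 130 CPM at 24 h in labelled CIS-/- against 14.1, 15.2 and 15.4 CPM in WT. That difference (3.13 ± 0.05, adjusted p = 3.52e-51) was the largest of the V1 genes, and WT at 24 h stood at -0.40 (log2) against unstimulated WT, or -0.09 and not called without TMM. Atp6v1c1, which takes part in the reversible assembly of V1 on V0, had 661, 620 and 618 CPM in labelled CIS-/- against 92.2, 98.7 and 91.5 CPM in WT (2.75 ± 0.04, adjusted p = 2.29e-55). Atp6v1e1, of the peripheral stalk, had 982, 847 and 865 CPM against 173, 178 and 170 CPM (2.37 ± 0.04, adjusted p = 4.8e-49). The other 4, Atp6v1d and Atp6v1f of the rotor, Atp6v1g1 of the stalk and the ATP-binding Atp6v1b2, differed by 1.71, 1.2, 1.0 and 0.7 (log2).

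In the V0 sector the 2 forms of subunit d parted. Atp6v0d2 (chr4:19876841-19922605, minus strand), a form known from osteoclasts and some other myeloid cells, was nearly absent before culture, with 0.243, 0.19 and 0.193 CPM in labelled CIS-/- libraries and 0.306, 0.201 and 0.0537 CPM in WT, which is 10 and 9 counts over 3 libraries. At 4 h it had 16.6, 17.9 and 16.7 CPM in labelled CIS-/- against 18.7, 20.8 and 19.2 CPM in WT. At 24 h it had 183, 161 and 167 CPM in labelled CIS-/- against 3.35, 3.09 and 3.82 CPM in WT. It passed the filter only through the cultured groups, and at 24 h its log2 fold change of 5.65 ± 0.07 (adjusted p = 3.96e-57) was the largest of the 41. Atp6v0d1, the widely expressed form, had 579, 541 and 528 CPM in labelled CIS-/- against 196, 195 and 185 CPM in WT at 24 h (1.52 ± 0.04, adjusted p = 1.47e-43). Per kb of exon, Atp6v0d2 came to 20.5% of Atp6v0d1 in labelled CIS-/- libraries and 1.18% in WT at 24 h, and to 2.6% and 2.85% at 4 h. A list of 7 osteoclast markers summed to 166 to 173 CPM in labelled CIS-/- against 116 to 119 CPM in WT at 24 h. Nearly all of it was Nfatc1, at 159 ± 4.6 CPM in labelled CIS-/- against 116 ± 1.2 CPM in WT (SD, n = 3 each, here and below). Acp5 averaged 9.91 ± 1.1 CPM against 0.424 ± 0.14 CPM. Calcr and Ocstamp had no count in either 24 h group, and Dcstamp averaged 0.0333 ± 0.058 CPM in labelled CIS-/- and 0 in WT. Ctsk and Oscar averaged below 1 CPM in both 24 h groups. Ctsk stood at -0.1 (log2, labelled CIS-/- over WT) and was not called.

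Atp6v0c, the proteolipid of the proton-carrying ring, already differed before culture, with 49.1, 48.9 and 48.0 CPM in labelled CIS-/- against 29.1, 30.4 and 29.8 CPM in WT (0.71 ± 0.05, adjusted p = 1.08e-16). At 24 h it had 287, 310 and 296 CPM in labelled CIS-/- against 66.3, 61.4 and 62.0 CPM in WT (2.23 ± 0.04, adjusted p = 2.57e-49). Its named pseudogenes Atp6v0c-ps2 and Atp6v0c-ps1 held 377 and 45 counts over all libraries, against 28336 for the gene. Atp6ap2, the prorenin receptor, which is also a V-ATPase accessory protein, had 538, 531 and 537 CPM in labelled CIS-/- against 147, 147 and 139 CPM in WT at 24 h (1.89 ± 0.04, adjusted p = 1.28e-48). Atp6v0a1, which forms the proton path with the ring, differed by 1.07, and Atp6v0b and Atp6v0e by 0.99 and 1.43. Atp6ap1 differed by 0.25 with TMM and -0.29 without it.

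**Figure D3:**
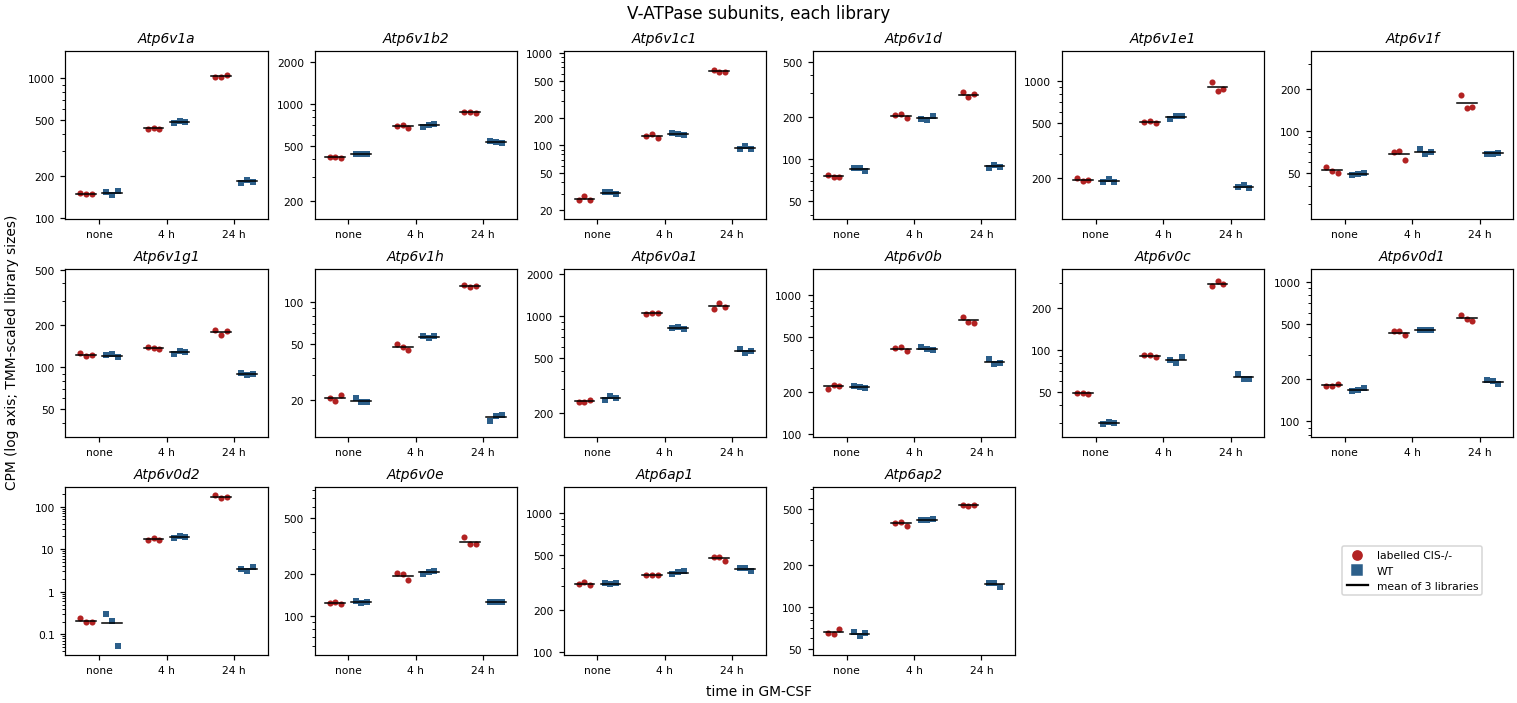
CPM on a log axis of the 16 V-ATPase genes in each library, by time in GM-CSF; circles are libraries labelled CIS-/-, squares are WT and lines are means of 3. At 24 h the labelled CIS-/- libraries lie above all WT libraries in every panel (Atp6ap1 is reversed without TMM); Atp6v0d2 stands at 161 to 183 CPM against 3.09 to 3.82 CPM.

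The cathepsins are the lysosome's main proteases, and 5 of the 6 were higher in labelled CIS-/- libraries than in WT at 24 h and 1 lower, against 38.2% and 38.1% of all genes (4 and 2 without TMM, where Ctsa turned to -0.21). Ctsb (chr14:63122462-63145923, plus strand), a cysteine protease, had 142, 148 and 144 CPM unstimulated, 643, 650 and 641 CPM at 4 h and 2900, 2720 and 2590 CPM at 24 h in labelled CIS-/- libraries. WT libraries had 168, 164 and 163 CPM, then 744, 749 and 775 CPM, then 406, 392 and 387 CPM. The order of the genotypes turned between 4 h, where labelled CIS-/- was lower (-0.23 ± 0.03, adjusted p = 1.76e-07), and 24 h, where it was higher (2.79 ± 0.03, adjusted p = 3.14e-58). Fdft1 overlaps 12.8% of the exon bases of Ctsb on the other strand, with 8587 counts against 218484 over all libraries, and whether reads were counted by strand is not stated.

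Ctsz, a carboxypeptidase, had 1490, 1340 and 1280 CPM at 24 h in labelled CIS-/- against 217, 206 and 213 CPM in WT (2.69 ± 0.04, adjusted p = 2.03e-46). Ctsl, an endopeptidase, was higher in labelled CIS-/- libraries at every time: 47.7, 50.3 and 53.0 CPM against 27.7, 24.6 and 26.9 CPM in unstimulated WT, 190, 187 and 188 CPM against 111, 119 and 118 CPM at 4 h, and 448, 420 and 428 CPM against 75.7, 73.3 and 72.1 CPM at 24 h. Its log2 fold changes were 0.93, 0.7 and 2.55, in the order of time. Ctsd, the aspartic cathepsin, was the most abundant cathepsin per kb of exon in every group, at 2460 ± 180 CPM per kb in labelled CIS-/- and 1080 ± 19 CPM per kb in WT at 24 h (SD, n = 3 each). It had 6260, 5680 and 5420 CPM in labelled CIS-/- against 2590, 2510 and 2510 CPM in WT (1.19 ± 0.03, adjusted p = 6.57e-37). Gm49369 overlaps 34.4% of the exon bases of Ctsd on the same strand, with 0 counts against 856632 over all libraries. How reads in the shared bases were counted is not stated, and the value of Ctsd per kb may be too low.

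Ctss, the cathepsin best known for trimming the MHC class II invariant chain, took another course. It had 14.9, 15.5 and 14.4 CPM unstimulated, 314, 323 and 308 CPM at 4 h and 66.8, 59.1 and 56.8 CPM at 24 h in labelled CIS-/- libraries. The WT values were 13.1, 14.3 and 13.0 CPM, then 284, 288 and 299 CPM, then 76.7, 79.7 and 80.0 CPM. Both genotypes thus peaked at 4 h, and at 24 h labelled CIS-/- was lower than WT, without overlap (-0.38 ± 0.05, adjusted p = 1.12e-10). Ctsa, a carboxypeptidase that also shields Neu1 and the beta-galactosidase, had 240, 232 and 214 CPM in labelled CIS-/- against 185, 181 and 181 CPM in WT at 24 h.

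Of the 10 other hydrolases and lipid proteins, 8 were higher and 2 lower in labelled CIS-/- libraries at 24 h, against 38.2% and 38.1% of all genes (7 and 3 without TMM, where Lipa turned to -0.08). Gla, the alpha-galactosidase that is lost in Fabry disease, differed before culture, with 54.8, 54.3 and 54.2 CPM in labelled CIS-/- against 21.6, 22.4 and 19.4 CPM in WT (1.37 ± 0.06, adjusted p = 3.37e-29). At 4 h the groups were close, with 150, 156 and 149 CPM in labelled CIS-/- against 165, 169 and 166 CPM in WT (-0.13 ± 0.04, adjusted p = 0.0136). At 24 h they parted again, with 468, 453 and 451 CPM in labelled CIS-/- against 52.1, 54.6 and 48.8 CPM in WT (3.14 ± 0.04, adjusted p = 2.34e-57). The order of the genotypes therefore turned at 4 h and turned back, and the 4 h interaction of Gla (-1.5 ± 0.07, adjusted p = 2.72e-26) was the largest of the 41. Gaa, the acid alpha-glucosidase of glycogen breakdown, had 106, 108 and 106 CPM in labelled CIS-/- against 35.7, 32.9 and 35.4 CPM in WT at 24 h (1.62 ± 0.05, adjusted p = 1.63e-36).

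Psap, the precursor of the saposins that present sphingolipids to their hydrolases, was level with Ctsd in WT and above it in labelled CIS-/- libraries at 24 h per kb of exon, at 2960 ± 68 CPM per kb in labelled CIS-/- and 1100 ± 29 CPM per kb in WT (SD, n = 3 each). That order is uncertain, because Gm49369 overlaps 34.4% of the exon bases of Ctsd on the same strand. Psap had 1540, 1540 and 1510 CPM unstimulated, 1720, 1720 and 1670 CPM at 4 h and 8270, 8180 and 7910 CPM at 24 h in labelled CIS-/- libraries. In WT it had 1450, 1480 and 1470 CPM, then 1960, 1960 and 2020 CPM, then 3100, 2960 and 2970 CPM. The larger part of the rise (2.25 in labelled CIS-/- and 0.61 in WT, log2) came after 4 h in both genotypes. Npc1 and Npc2 pass cholesterol out of the lysosome; Npc1 had 732, 805 and 783 CPM in labelled CIS-/- against 229, 226 and 228 CPM in WT at 24 h (1.76 ± 0.03, adjusted p = 1.07e-47), and Npc2 differed by 0.61. Rmc1 overlaps 4.5% of the exon bases of Npc1 on the other strand, with 35694 counts against 93870 over all libraries.

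Lipa, the acid lipase of cholesteryl esters, rose late in both genotypes. It had 56.2, 56.8 and 54.1 CPM unstimulated, 75.3, 78.9 and 75.3 CPM at 4 h and 952, 903 and 907 CPM at 24 h in labelled CIS-/- libraries. WT libraries had 61.4, 55.5 and 57.0 CPM, then 88.8, 88.0 and 88.7 CPM, then 668, 702 and 649 CPM. The rise between 4 h and 24 h (3.59 ± 0.04 in labelled CIS-/- and 2.93 ± 0.04 in WT, log2) was far larger than the genotype difference at 24 h, 0.45, which reversed without TMM. Neu1, a sialidase, fell at 4 h in both genotypes and parted after it, with 301, 287 and 281 CPM in labelled CIS-/- against 125, 125 and 128 CPM in WT at 24 h (1.2 ± 0.04, adjusted p = 1.12e-37). Hexa, the beta-hexosaminidase subunit of ganglioside breakdown, differed by 1.06. The beta-glucuronidase Gusb had 36.3, 37.8 and 37.2 CPM in labelled CIS-/- against 48.1, 45.9 and 44.1 CPM in WT at 24 h (-0.31 ± 0.05, adjusted p = 5.36e-07). The acid ceramidase Asah1 had 120, 120 and 132 CPM against 142, 156 and 151 CPM (-0.27 ± 0.04, adjusted p = 1.15e-07). Gusb was called lower in labelled CIS-/- libraries at 24 h than unstimulated (-0.19), but its value was 0.11 against unstimulated WT.

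**Figure D4:**
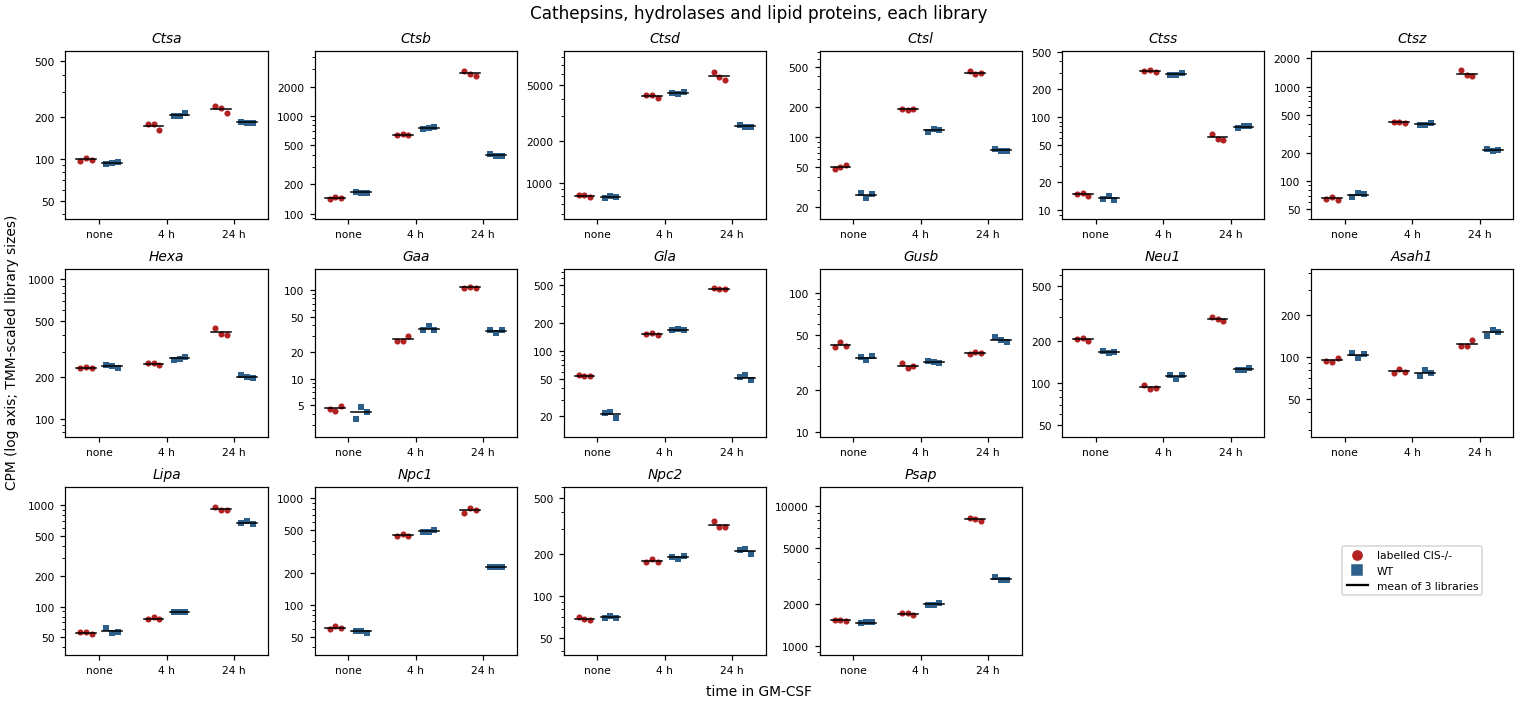
CPM on a log axis of the 6 cathepsins and 10 other hydrolases and lipid proteins in each library, by time in GM-CSF; circles are libraries labelled CIS-/-, squares are WT and lines are means of 3. At 24 h Ctsb stands at 2590 to 2900 CPM in labelled CIS-/- against 387 to 406 CPM in WT, while Ctss, Gusb and Asah1 are lower there than in WT; Ctsa and Lipa are also lower without TMM.

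The 5 membrane proteins were all higher in labelled CIS-/- libraries than in WT at 24 h (38.2% of all genes), with and without TMM. Lamp1, the main protein of the lysosomal membrane, had 137, 128 and 132 CPM unstimulated, 796, 802 and 754 CPM at 4 h and 1310, 1250 and 1260 CPM at 24 h in labelled CIS-/- libraries. The WT values were 137, 139 and 139 CPM, then 887, 881 and 919 CPM, then 336, 326 and 333 CPM, so the genotypes were close before culture and stood apart at 24 h (1.94 ± 0.03, adjusted p = 5.98e-51). Lamp2, its partner in membrane stability and autophagy, peaked at 4 h in both genotypes and had 532, 537 and 568 CPM in labelled CIS-/- against 283, 322 and 299 CPM in WT at 24 h (0.86 ± 0.04, adjusted p = 1.51e-29). Per kb of exon, Lamp1 was 834% of Lamp2 in labelled CIS-/- and 394% in WT at 24 h, against 158% and 152% unstimulated. Mcoln1, the calcium channel TRPML1 of the lysosome, had 171, 174 and 172 CPM in labelled CIS-/- against 81.8, 71.5 and 74.2 CPM in WT (1.19 ± 0.04, adjusted p = 1.7e-33). The tetraspanin Cd63 had 729, 632 and 637 CPM against 212, 204 and 200 CPM (1.7 ± 0.04, adjusted p = 5.18e-41).

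Cd68, a lysosomal glycoprotein often used to mark macrophages, had 62.8, 60.6 and 56.3 CPM unstimulated, 239, 233 and 218 CPM at 4 h and 545, 481 and 450 CPM at 24 h in labelled CIS-/- libraries. In WT it had 66.5, 66.0 and 62.1 CPM, then 279, 278 and 296 CPM, then 76.9, 72.5 and 76.3 CPM. WT at 24 h was 0.21 (log2) above unstimulated WT, while all 3 labelled CIS-/- libraries stood above every library of the other times, and the 24 h difference was 2.71 ± 0.05 (adjusted p = 1.73e-26). A list of 16 monocyte or macrophage markers, which does not hold Cd68, summed to 1020 to 1060 CPM in labelled CIS-/- and 548 to 569 CPM in WT at 24 h, with 13 of 16 detected in each. Most of the difference in the sum was Adgre1, which averaged 776 ± 18 CPM in labelled CIS-/- against 344 ± 12 CPM in WT, while Csf1r averaged 169 ± 4.9 CPM against 163 ± 1.3 CPM (SD, n = 3 each). Of the other tested markers of the list, Fcgr1 at 0.51 and Ly6c2 at 0.77 (log2, labelled CIS-/- over WT) were called higher. Vcam1 was also higher and averaged 1.64 ± 0.28 CPM against 0.123 ± 0.082 CPM. Only Siglec1 was called lower, at 0.309 ± 0.059 CPM against 1.18 ± 0.18 CPM. Ccr2, at 0.315 ± 0.13 CPM against 0.662 ± 0.096 CPM, and Csf1r were not called. C1qb and Cd5l had no count in labelled CIS-/- at 24 h and C1qa, C1qc and Cd5l none in WT. Mertk averaged 0.12 ± 0.056 CPM in labelled CIS-/- and 0.137 ± 0.038 CPM in WT. The erythroid markers summed to 23.3 to 33.8 CPM in labelled CIS-/- against 5.95 to 7.37 CPM in WT at 24 h, and a list of 4 stem or progenitor markers to 342 to 380 CPM against 185 to 189 CPM, with Kit the only one of the 4 at 1 CPM or more. Lists for dendritic, B, T or NK cells and platelets summed to 3.87 CPM or less in labelled CIS-/- and 4.19 CPM or less in WT at 24 h, and one for eosinophils or basophils to 53.4 to 57.6 CPM against 57.4 to 65.8 CPM. Within the eosinophil or basophil list, Ccr3 was at 3.41 and Siglecf at -0.61 (log2, labelled CIS-/- over WT). Epx and Prg2 were not called. The part of these other genes in the results was not tested.

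**Figure D5:**
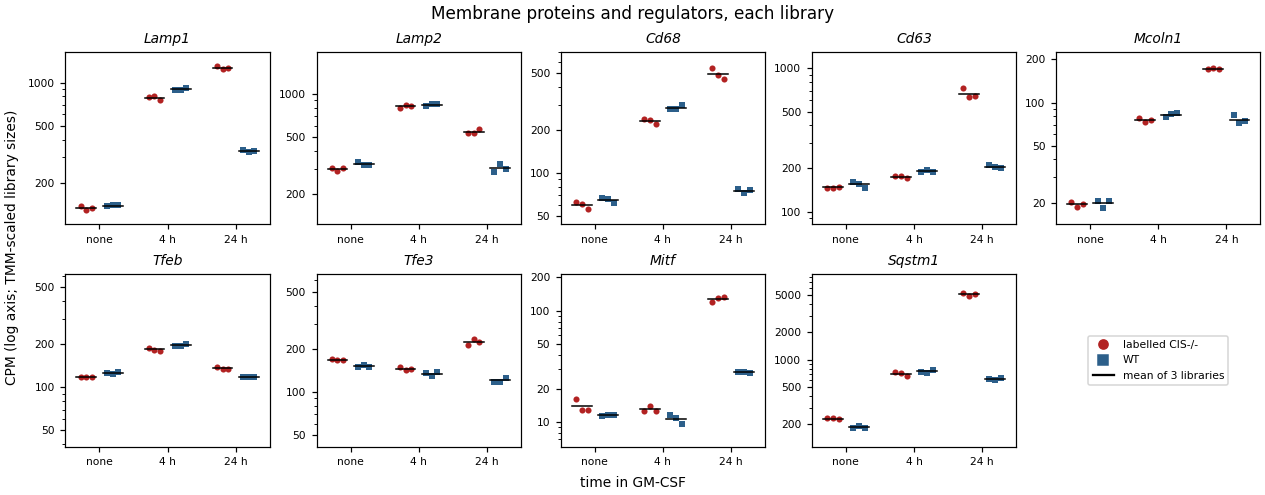
CPM on a log axis of the 5 membrane proteins, Tfeb, Tfe3, Mitf and Sqstm1 in each library, by time in GM-CSF; circles are libraries labelled CIS-/-, squares are WT and lines are means of 3. At 24 h Sqstm1 stands at 4980 to 5310 CPM in labelled CIS-/- against 596 to 630 CPM in WT, while Tfeb differs little and is lower in labelled CIS-/- without TMM.

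The regulators did not move alike. Mitf had 16.2, 12.9 and 12.8 CPM unstimulated, 12.5, 13.9 and 12.6 CPM at 4 h and 119, 129 and 133 CPM at 24 h in labelled CIS-/- libraries. WT libraries had 11.3, 11.6 and 11.5 CPM, then 11.5, 10.9 and 9.64 CPM, then 28.1, 28.3 and 27.8 CPM. Its rise came after 4 h in both genotypes and was larger in labelled CIS-/- (24 h interaction against unstimulated 1.89 ± 0.11, adjusted p = 1.24e-23). At 4 h against unstimulated in labelled CIS-/- libraries its value was -0.09, not called, and 0.20 against unstimulated WT. Tfe3 had 214, 233 and 223 CPM in labelled CIS-/- against 118, 118 and 125 CPM in WT at 24 h (0.89 ± 0.04, adjusted p = 9.04e-31). Tfeb had 139, 135 and 135 CPM against 118, 118 and 119 CPM (0.21 ± 0.04, adjusted p = 8.11e-07; -0.32 without TMM), and in both genotypes it was highest at 4 h. Per kb of exon, Mitf came to 85% of Tfeb in labelled CIS-/- and 21.8% in WT at 24 h, against 10.7% and 8.28% unstimulated. RNA levels say nothing of where these factors sit in the cell, which is known to control them.

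Sqstm1 (chr11:50199366-50210827, minus strand) encodes p62, which carries ubiquitin-tagged cargo into autophagosomes and is itself degraded in lysosomes. It had 230, 231 and 223 CPM unstimulated, 726, 717 and 668 CPM at 4 h and 5310, 4980 and 5160 CPM at 24 h in labelled CIS-/- libraries. The WT values were 181, 190 and 181 CPM, then 742, 722 and 771 CPM, then 611, 596 and 630 CPM. The groups were close at 4 h and far apart at 24 h, where the log2 fold change was 3.07 ± 0.03 (adjusted p = 2.99e-60).

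Genes of the lysosome outside the 41 went in both directions. Of 118 genes in 8 further lists, 105 were tested. At 24 h 65 were called higher and 34 lower in labelled CIS-/- libraries than in WT (38.2% and 38.1% of all genes). By at least 2-fold it was 41 and 15 (18.2% and 16%). The median was 0.45 against -0.02 for all genes. Without TMM the lists had 45 higher calls and 51 lower, and their median was -0.08. All genes without TMM had 2558 higher calls and 6999 lower, and their median was -0.55. The median of the lists thus lay above that of all genes in both settings. Counts without TMM in the rest of this paragraph also belong beside the calls for all genes without TMM. Of 25 further hydrolases, 11 were higher and 14 lower (9 and 15 without TMM), and the alpha-mannosidase Man2b1 averaged 96.6 ± 3.3 CPM in labelled CIS-/- against 485 ± 11 CPM in WT (SD, n = 3 each). Of 10 tested cathepsins and proteases outside the 41, 5 were higher and 2 lower (4 and 5 without TMM), with Tpp1 at 1.9 and Lgmn, the asparaginyl protease, at 2.12 (log2). Of 10 further V-ATPase subunits and assembly factors 5 were higher and 3 lower (3 and 5 without TMM); Tcirg1, the a3 form of subunit a, came to 63.9% of Atp6v0a1 per kb in labelled CIS-/- and 51.4% in WT.

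The share of all genes beside each count of this paragraph was 38.2% called higher and 38.1% lower. Without TMM, 2558 of the 11569 tested genes were called higher and 6999 lower. The lists are short and were not tested as sets. Among 18 further membrane proteins 13 were higher and 5 lower at 24 h (7 and 10 without TMM), with the chloride carrier Clcn7 at 2.29 and the channel Tpcn1 at -2.84. Of 12 genes of the Rag-Ragulator group and Tfec, 10 were higher and 2 lower (8 and 4 without TMM). Tfec, the fourth factor of the TFEB family, averaged 190 ± 7.8 CPM in labelled CIS-/- against 36.8 ± 1.6 CPM in WT, and came to 141% and 31.6% of Tfeb per kb. Of 7 cathepsin inhibitors 6 were higher and 1, Cst3, lower at -0.91; several are stefin A genes close in sequence, whose reads the counting may have split. Of 6 sorting genes 3 were higher and 2 lower (2 and 3 without TMM), with the mannose 6-phosphate receptor M6pr at 1.99 and the sortilin Sort1 at -2.03. Of 17 autophagy genes 12 were higher and 5 lower (6 and 8 without TMM), with the receptor Optn at 2.26 and Gabarapl1 at 2.28.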

How the data were processed

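RNA-seq counts per gene were deposited by the authors; per the submitters' processing notes, Trimmomatic, STAR and featureCounts were used with mm10, with the annotation release and strand setting not stated. The 41 genes and all gene lists were chosen with earlier results of these data known. GENCODE M21 named 53274 of the 53379 gene IDs; its merged exon lengths give values per kb. The 105 unnamed IDs held 0.0238% of counts. No replicate pair agreed within sampling noise (chi-square per degree of freedom 1.292 to 9.317), and none was counted as 1 sample. Technical replicates can also differ by more than that noise, so this does not show separate mice. All 18 libraries were fitted, labelled CIS-/- 24 h replicate 1, which stands apart, included.

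Counts were filtered with filterByExpr (11569 genes, 99.928% of counts), scaled by TMM and fitted with edgeR 4.0.16's robust quasi-likelihood model in R 4.3.3, with 6 groups over 18 libraries (biological coefficient of variation 3.3%, residual degrees of freedom 12, median prior 45.5). The 12 comparisons were adjusted by Benjamini-Hochberg over all genes, with an adjusted p under 0.05 as a call. The SE beside a log2 fold change comes from the same fit. Scripts were tested on simulated data in which few genes changed, in random directions. That simulation does not bear on scaling by TMM where most genes change. Genes given in every library are mainly the members of each role with the largest called fold changes and their isoform partners; of other lists, those with the smallest adjusted p at 24 h. Alternatives were DESeq2 1.42.0, its size factors, no TMM, no filter, a filter of 50 counts in 3 libraries, a replicate block, the compared groups alone and leaving out each library; added after seeing the data was WT unstimulated in place of unstimulated libraries labelled CIS-/-. Python 3.11.15, pandas 2.3.3 and matplotlib 3.10.9 made the tables and plots. Same-numbered libraries of different groups did not deviate together, so replicate numbers were not used as pairs. Totals ran from 12170524 to 22539858 counts per library.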

Additional observations from a re-analysis of the deposited data

Results flagged for a closer look

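The change with time differed between genotypes, tested as an interaction (labelled CIS-/- minus WT) in edgeR's quasi-likelihood model. Over the first 4 h the interaction was called positive for 3 of the 41 genes and negative for 12 (5.32% and 10.4% of all genes; 4 and 11 without TMM). The members with the largest negative values were Gla at -1.50, Atp6v0c at -0.61, Neu1 at -0.57 and Gaa at -0.54 (log2). For Gla, Atp6v0c and Neu1 the unstimulated level was higher in labelled CIS-/- libraries than in WT. Cish was also higher in these unstimulated libraries than in unstimulated WT.

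From unstimulated to 24 h the interaction was positive for 38 genes and negative for 3 (31.6% and 33.1% of all genes; 34 and 6 without TMM), and from 4 h to 24 h, where no unstimulated library enters the difference, it was also positive for 38 and negative for 3 (33.9% and 32.1% of all genes; 35 and 5 without TMM). Over 24 h the value was 5.44 for Atp6v0d2, which starts from 10 counts in labelled CIS-/- and 9 in WT. It was 3.07 for Atp6v1h, 2.98 for Ctsb, 2.95 for Atp6v1c1 and 2.82 for Cd68. It was 2.81 for Ctsz, 2.76 for Sqstm1, 2.54 for Atp6v1a and 2.34 for Atp6v1e1.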

How the results depend on the processing

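DESeq2, its size factors, the strict filter and the replicate block moved none of the 48 counts of called members by over 1.5 times. The block gave 38 members higher and 28 at least 2-fold higher at 24 h in labelled CIS-/- than in WT; it called Asah1 at -0.12 in unstimulated cells and Cd68 at -0.19 in the 4 h interaction, and no longer Tfeb at -0.10 at 4 h. Same-numbered libraries of different groups correlated at -0.0775 to 0.065 in their deviations, and others at -0.0741 to 0.0755. Whether equal numbers mark a shared mouse or preparation was not tested. Leaving out 1 library gave 4 to 7 lower in unstimulated genotypes, 2 to 6 higher at 4 h and 38 higher in each case at 24 h. The compared groups alone gave 11 lower unstimulated, 8 higher at 4 h and 5 positive 4 h interactions; no filter gave 3 higher and 10 lower at 4 h. Without TMM, WT called 6 lower at 4 h and 2 lower at 24 h against unstimulated, and 17 higher and 19 lower (5 and 7 at least 2-fold) at 24 h against 4 h; labelled CIS-/- against WT called 11 lower unstimulated, and 7 lower and 19 at least 2-fold higher at 24 h; negative interactions were 6 (2 at least 2-fold) over 24 h and 5 (1 at least 2-fold) from 4 h to 24 h. Over all genes, higher and lower calls of 4707 and 4361 became 6352 and 3164 for WT 24 h against unstimulated, 4128 and 4586 became 6763 and 2506 for WT 24 h against 4 h, 1489 and 1089 became 1168 and 1660 for the unstimulated genotypes, 3658 and 3831 became 2028 and 6178 for the 24 h interaction, and 3922 and 3711 became 2247 and 6154 for that from 4 h. The following reversed without TMM. In WT, Atp6v1g1 was -0.10 at 4 h. At 24 h against unstimulated WT, Atp6v1e1 was 0.17, Hexa 0.07, Tfeb 0.21 and Lamp2 0.21. At 24 h against 4 h in WT, Ctsa was 0.32, Atp6v0b 0.17, Atp6v1f 0.45, Mcoln1 0.37, Atp6v1b2 0.10, Hexa 0.06, Cish 0.37, Sqstm1 0.20, Gaa 0.40, Atp6v0c 0.07 and Tfe3 0.33. Hexa was -0.05 at 4 h in labelled CIS-/-. At 24 h between genotypes, Ctsa was -0.21, Tfeb -0.32, Lipa -0.08 and Atp6ap1 -0.29. In the 24 h interaction, Ctsa was -0.25, Tfeb -0.19 and Atp6ap1 -0.24, and from 4 h Cish -0.42, Tfeb -0.21 and Atp6ap1 -0.22. Against WT unstimulated in place of unstimulated labelled CIS-/-, 0 were at least 2-fold lower at 4 h and 0 lower at 24 h, with Mitf at 0.20 at 4 h and Gusb at 0.11 at 24 h. Without TMM the scale itself shifts every value of a comparison alike; the cause of the other changes was not tested. The 10 and 9 counts of unstimulated Atp6v0d2 limit its change with time.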
